A study of Danio rerio with 2 samples.

Results

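The 7 genes described here encode parts of desmosomes and tight junctions, a regulator of splicing in epithelial cells, and a pair of proteins made in the outer epithelium of the zebrafish embryo. They are evpla, dspa, pkp3a, esrp2, cldne, anxa1a and agr1. They were taken by gene symbol from the 4591 genes listed in both deposited tables, and each symbol occurred on 1 line. The genes were put together with their values in these same libraries already known, so their lower values in the phf14 morpholino library are a description of how they were chosen and are not tested. Keratins, which belong to the same epithelium, were left out of the group and serve as a comparison.

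Messenger RNA was sequenced from whole zebrafish embryos of the Tuebingen strain, collected 4.7 h after fertilization. Both groups had been injected at the 1-cell stage with 5 ng of a morpholino, an antisense agent that stops a chosen mRNA from being translated or spliced. One group received a standard morpholino and the other a morpholino against phf14, which encodes a histone-binding chromatin protein, and the study addresses the part of that protein in activation of the zygotic genome. Each group is 1 library, so there is no replicate error and no p-value, and every difference below is between these 2 libraries. The sources used here do not give the number of embryos pooled per library or the morpholino sequences. No phf14 value was analysed here, and the knockdown was not checked.

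In the blastula the outermost cells form the enveloping layer, a single flat epithelium that seals the embryo from the water. Desmosomes fasten its cells to one another. In them, desmosomal cadherins cross the gap between cells, armadillo proteins such as the plakophilins bind the cadherin tails, and plakins such as desmoplakin link the plaque to keratin filaments. Tight junctions, built from claudins, close the space between cells to solutes. ESRP proteins direct the splicing of transcripts toward their epithelial forms.

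The deposited values are a normalised expression signal of unstated scale, so the log2 ratios compare the same gene between libraries. Where genes are grouped by level, summed over a list or matched by value, different genes are set side by side. Such groupings are descriptions on that unstated scale. They summed to 75675 with the standard and 71136 with the phf14 morpholino, and the libraries had 26 and 25 genes listed at 0. Sequencing depth is unknown. The log2 ratio used throughout is log2(value + 1) in the phf14 morpholino library minus the same in the standard morpholino library. Over the 3524 listed genes whose mean reached 1, called all genes below, its median was 0.11 and its SD across genes was 0.35. That SD mixes measurement error with true differences. Of the 213 genes in the 8 lists by role used below, 59 were listed. Why a gene was listed or not was not examined, so shares of all genes describe the listed genes only.

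All 7 genes passed the minimum mean of 1 and all were lower with the phf14 morpholino than with the standard morpholino. Lower values were seen in 37.2% of the 3524 genes. Past 1.5-fold, 3 of the 7 were lower, against 2.84% of all genes, and past 2-fold 2 of the 7 were lower, against 0.482%. Because the group was chosen on this contrast, nothing is read from these shares. The median log2 ratio of the 7 was -0.54, where that of all genes was 0.11. The spread within the group was wide, from -1.15 for evpla to -0.10 for cldne, with an SD of 0.41 across the 7 genes.

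**Figure D1:**
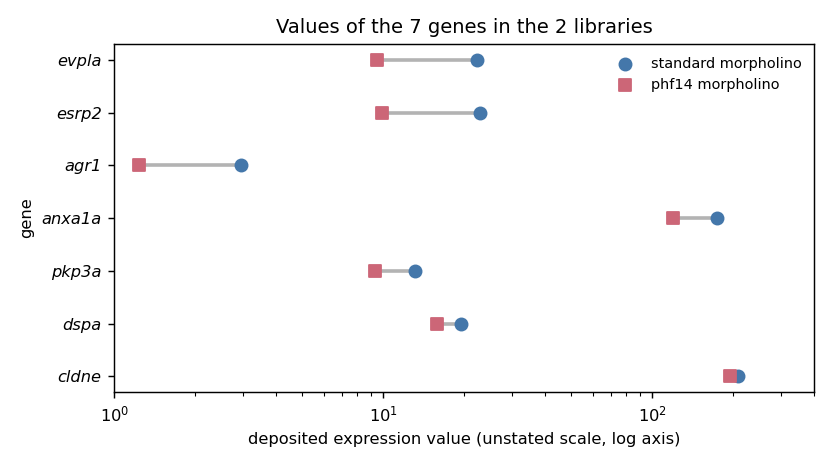
Deposited expression value (log axis, unstated scale) of each of the 7 genes, with a circle for the standard and a square for the phf14 morpholino library, 1 library each. The squares lie left of the circles for every gene, widest apart for evpla, esrp2 and agr1 and nearly touching for cldne, at 208.05 and 194.20.

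The plaque proteins of the desmosome come first. evpla (ENSDARG00000019808) encodes envoplakin, a plakin that in mammals is found at desmosomes and in the cornified envelope of the epidermis. Its value was 22.31 with the standard and 9.49 with the phf14 morpholino, which is 42.5% of the standard value and a log2 ratio of -1.15. Only 7 of the 3524 genes had a lower log2 ratio, since evpla ranked 8 from the lowest. Among the 352 genes of like level (the ninth of 10 bins of equal size, ranked by mean log2 value) it ranked 1. The median of that bin was 0.07 and its SD 0.34.

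The desmoplakin gene dspa (ENSDARG00000022309) encodes the plakin that ties keratin filaments to the desmosome. Its value was 19.44 with the standard and 15.77 with the phf14 morpholino, or 81.1% of the standard value, with a log2 ratio of -0.29. The difference was small beside that of evpla, although both genes encode plakins and lay in the same level bin, in which dspa ranked 56 of 352. The log2 ratio of evpla was lower than that of dspa by a difference of -0.87.

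pkp3a (ENSDARG00000051861) encodes a plakophilin, an armadillo protein that clusters desmosomal cadherins and binds desmoplakin. It stood at 13.10 with the standard and 9.33 with the phf14 morpholino, which is 71.2% of the standard value and a log2 ratio of -0.45. It lay between the plakins, at rank 24 of the 352 genes in its own level bin.

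The desmosome list held 17 genes, of which 9 were listed and 8 had a mean of at least 1. Of those 8, 7 were lower with the phf14 morpholino, but 3 of the 8 were chosen with their lower values known. Of the other 5, 4 were lower, where 37.2% of all genes were. The median log2 ratio of the 8 was -0.33, but 1 was lower past 1.5-fold (evpla) and none was higher past it. The 5 genes besides the 3 described above had a median of -0.30. perp, which encodes a membrane protein of desmosomes, was at 42.01 and 31.86 in the standard and phf14 morpholino libraries (log2 ratio -0.39). The desmosomal cadherin gene dsc2l, for desmocollin, was at 9.12 and 6.83 (-0.37). ppl, for periplakin, the plakin that pairs with envoplakin in mammals, was at 33.60 and 27.17 (-0.30). The cadherin partner was the exception: dsg2.1, for desmoglein, was at 12.69 and 13.14 (0.05), a higher value as deposited, though below the median gene after centring (-0.06). The second plakophilin gene, pkp1b, was near level at 1.43 and 1.28 (-0.09). evplb, the other envoplakin gene, did not pass the minimum, with values of 0.92 and 0.69.

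Within the desmosome list evpla had the lowest log2 ratio. It was chosen with that value known, so nothing is read from its place. The log2 ratio of evpla was apart from that of its partner ppl by -0.86, nearly the same as its distance from dspa. The other 7 measured genes of the list lay between -0.45 and 0.05, a span in which many of the listed genes lie, as the plot of log2 ratio against level shows.

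**Figure D2:**
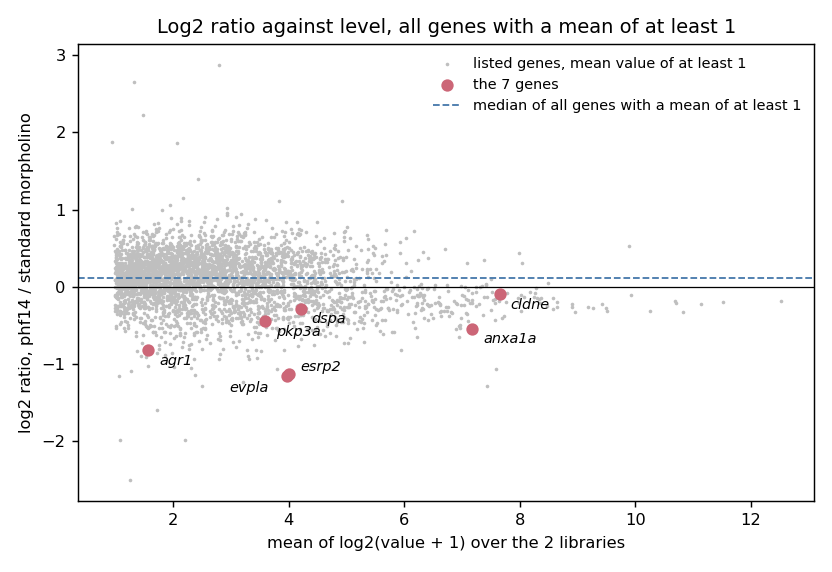
Log2 ratio of the phf14 over the standard morpholino library (vertical axis) against the mean of log2(value + 1) over the 2 libraries (horizontal axis) for the 3524 genes whose mean reached 1, with the 7 genes in red and the median of all genes, 0.11, as a dashed line. evpla and esrp2 coincide below the cloud of genes of their level, whereas dspa, pkp3a and cldne lie inside it.

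The splicing regulator esrp2 (ENSDARG00000018814) was at 22.90 with the standard and 9.88 with the phf14 morpholino. That is 43.1% of the standard value and a log2 ratio of -1.14, the 11th lowest of the 3524 genes and rank 2 in its level bin. esrp2 and evpla thus held the bottom ranks of the same bin of 352 genes. Its paralogue esrp1 was at 41.79 and 36.79, or 88.0% of the standard value (-0.18). The log2 ratio of esrp2 was apart from that of esrp1 by -0.96.

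Of the 28 regulators of surface epithelium in the fixed list, 13 were listed and 11 had a mean of at least 1. In the phf14 morpholino library 9 of the 11 were lower and 2 higher. Without esrp2, chosen with its lower value known, 8 of 10 were lower, where 37.2% of all genes were. The median log2 ratio of the 11 was -0.28, and esrp2 was the 1 gene past 1.5-fold in either direction. The ETS family transcription factor gene elf3 followed at 3.63 and 2.24 (-0.52), and the homeobox gene dlx3b, which marks the border of the neural plate, at 2.38 and 1.42 (-0.48). Both passed 1.5-fold once the ratios were centred on the median gene. The grainyhead genes grhl1, at 30.12 and 23.84 (-0.33), and grhl2a, at 17.15 and 13.92 (-0.28), encode transcription factors of surface epithelia. At the other end stood klf5a, at 4.75 and 4.78 (0.01, or -0.10 relative to the median gene), and the zinc finger gene ovol1b, at 2.61 and 3.09 (0.18). tp63, the gene of the basal epidermis regulator, was below the minimum mean with values of 0.92 and 1.02.

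The claudin gene cldne (ENSDARG00000043128) was the member that differed least. Its value was 208.05 with the standard and 194.20 with the phf14 morpholino, 93.3% of the standard value and a log2 ratio of -0.10. Among the 353 genes of its level bin, the most abundant one, the median was -0.15 and cldne ranked 214 from the lowest. It was therefore lower than the median gene of the table but 0.05 above the median of genes of like level, and its direction reverses on that scale.

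Claudins did not share a direction. Of the 8 listed genes with a claudin symbol, 6 were lower and 2 higher in the phf14 morpholino library, where 37.2% of all genes were lower. The 6 include cldne, which was chosen with its lower value known. cldnf was at 18.68 and 14.07 (-0.39), cldna at 5.95 and 4.59 (-0.31), and cldnb at 51.61 and 45.49 (-0.18). cldng went the other way at 23.79 and 41.22 (0.77), as did cldnd at 51.83 and 80.75 (0.63), which is also among the oocyte-supplied genes listed here. The differences of cldng and cldnd were the larger ones in size, and both passed 1.5-fold, which 4.94% of all genes did in the higher direction. How reads shared by claudin genes of similar sequence were counted is not stated in the labels or files.

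The whole tight junction list of 51 genes had 11 listed and measured. In the phf14 morpholino library 7 were lower and 4 higher. Without cldne, chosen with its lower value known, 6 of 10 were lower, where 37.2% of all genes were. The median log2 ratio of the 11 was -0.14, with none lower past 1.5-fold and 2 higher past it. The tricellulin gene marveld2a, for a protein of the points where 3 cells meet, was at 10.87 and 14.78 (0.41). Its relative marveld3 was at 8.07 and 9.30 (0.18). The summed value of the list was 468.73 with the standard and 481.98 with the phf14 morpholino, so the sum was higher with the phf14 morpholino while the median log2 ratio was below 0.

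Adherens junctions and matrix contacts could be described by few genes. Of 27 adherens junction genes, 4 were listed and 3 had a mean of at least 1. The classical cadherin gene cdh2, for N-cadherin, was at 20.49 and 14.51 (-0.47), the actin linker gene lmo7b at 13.91 and 13.33 (-0.06), and nectin1b, for an adhesion molecule of the immunoglobulin superfamily, at 3.28 and 3.80 (0.17). Of 20 hemidesmosome and matrix adhesion genes, 5 were listed and 1 passed the minimum, the laminin gene lamb1a at 16.24 and 12.07 (-0.40). The hemidesmosome genes itgb4, for an integrin subunit, and pleca, for plectin, had values below 1 in both libraries.

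The annexin gene anxa1a (ENSDARG00000026726) encodes a calcium-dependent protein that binds membrane phospholipids. It was at 174.13 with the standard and 119.28 with the phf14 morpholino, or 68.5% of the standard value. Its log2 ratio of -0.54 was the 123rd lowest of the 3524 genes, and relative to the median of its abundant level bin it was -0.39. Its fold of 1.46 on the same log2(value + 1) scale was just under 1.5.

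The annexin A1 relatives were lower with it. anxa1b was at 7.03 and 4.92 (-0.44) and anxa1c at 3.04 and 1.62 (-0.62). These 3 genes had neighbouring log2 ratios, all below that of every other measured annexin. Their shares of the standard value were further apart, at 68.5% for anxa1a, 70.0% for anxa1b and 53.3% for anxa1c. The values of anxa1c are low, so the 1 added before taking logs weighs more on it. anxa2b, of another annexin class, was at 8.92 and 7.24 (-0.27). anxa4 was higher in the phf14 morpholino library, at 2.05 and 3.40 (0.53), and so was s100v2, a gene of the S100 calcium-binding family, at 5.33 and 7.50 (0.43). Over the whole list of 21 annexin and S100 genes, 6 were measured, of which 4 were lower and 2 higher. Without anxa1a, chosen with its lower value known, 3 of 5 were lower, where 37.2% of all genes were. anxa1c was lower past 1.5-fold.

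agr1 (ENSDARG00000060682) encodes a secreted protein of the anterior gradient family, relatives of the protein disulfide isomerases. It was at 2.96 with the standard and 1.24 with the phf14 morpholino, 41.9% of the standard value, which is about the same share as for evpla and esrp2. Its log2 ratio of -0.82 is smaller in size because the pseudocount of 1 weighs more on low values. With a pseudocount of 0.1 it was -1.19 and with 5 it was -0.35, so its size is the least settled of the 7.

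Other genes of protein folding in the endoplasmic reticulum were mostly higher. Of 21 genes in that list 5 had a mean of at least 1, and the 4 besides agr1 were all higher in the phf14 morpholino library, where 62.3% of all genes were, and calr3a was below the median gene after centring. ero1a, an oxidase gene under the minimum mean, was lower at 0.80 and 0.51. The disulfide isomerase gene pdia4 was at 9.13 and 12.37 (0.40). ero1b, for the oxidase that recharges such isomerases, was at 2.54 and 3.11 (0.22). calr3a, for a calreticulin chaperone, was at 52.52 and 55.02 (0.07, or -0.04 after centring), and creb3l2, for a transcription factor of the secretory pathway, at 1.06 and 1.44 (0.24).

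Of the 5 measured genes for surface proteins of the epithelium, 3 were higher and 2 lower with the phf14 morpholino. That split is near the one in all genes, of which 62.3% were higher and 37.2% lower. lye, a Ly6 family gene used as a marker of the enveloping layer, was at 348.72 and 301.89 (-0.21), and the calpain protease gene capn9 at 52.12 and 42.57 (-0.29). The tetraspanin genes cd9a, at 1.73 and 2.56 (0.38), and tspan35, at 1.85 and 2.31 (0.22), were higher in the phf14 morpholino library, as was the galectin gene lgals3b, at 2.37 and 2.87 (0.20). Of these 5 measured genes, from a list of 28, none passed 1.5-fold.

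**Figure D3:**
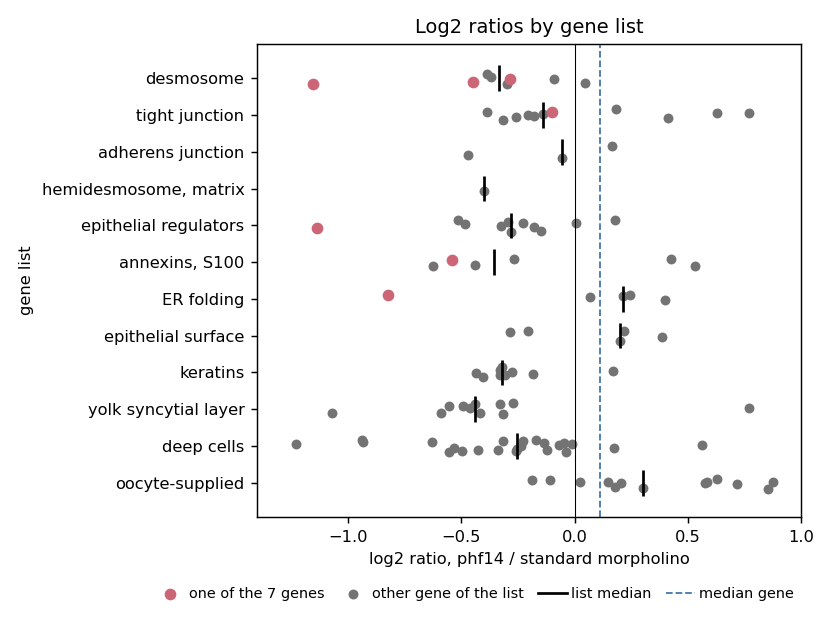
Log2 ratio of the phf14 over the standard morpholino library for every measured gene of the 12 lists, 1 row a list, with the 7 genes in red, other genes in grey, a black bar at the list median and a dashed line at the median gene, 0.11. Desmosome genes lie mostly between -0.45 and 0.05 with evpla far to the left, tight junction genes spread to both sides, and oocyte-supplied genes lie mostly to the right.

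Across the 8 lists by role, 52 genes other than the 7 were listed, and 43 of them had a mean of at least 1. Of these, 26 (60.5%) were lower and 17 higher in the phf14 morpholino library, where 37.2% of all genes were lower and 62.3% higher. Their median log2 ratio was -0.18, and 29 were below the median gene, under which 50.0% of all genes lie by construction. The lists were written with earlier results of these data known, and the difference in shares was not tested. Lower values past 1.5-fold were found in 1 of the 43 (anxa1c), or 2.33%, against 2.84% of all genes, and higher values past it in 2 (cldng and cldnd). As reported, the counts past 1.5-fold among related genes were near the share in all genes, unlike their share of lower values. Once the ratios were centred on the median gene, elf3 (-0.62) and dlx3b (-0.59) also passed 1.5-fold in the lower direction, as did 4.97% of all genes. On that scale cldnd (0.52) no longer passed it in the higher direction. The differences past 2-fold among the measured genes of these lists were those of evpla and esrp2. Both are among the 7 chosen with these values known, so nothing is read from that contrast.

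The keratins of the enveloping layer had a narrower range of lower values. Of the 9 measured genes of the keratin list 8 had lower values, where 37.2% of all genes did. Relative to genes of like level 8 of the 9 were lower as well, with a median of -0.18 in place of -0.32. This list too was written with earlier results of these data known. The median log2 ratio was -0.32, and the lower values ran from cyt1 at 97.98 and 72.20 (-0.44) and krt97 at 236.33 and 178.37 (-0.40) to krt92 at 213.07 and 187.44 (-0.18). krt96 was higher at 7.83 and 8.93 (0.17). A search by symbol after the values were seen found 3 measured keratin genes outside the list, krt18 at 788.15 and 650.22 (-0.28), krt91 at 3.61 and 3.27 (-0.11) and krt1-c5 at 1.43 and 1.56 (0.08), and over all 12 the median was -0.29, with 10 lower. The log2 ratios of dspa, perp, dsc2l and ppl fell within the range of the lower keratins, that of pkp3a lay just below it, and those of anxa1a, agr1, esrp2 and evpla lay further below. That of cldne was close to that of krt91. These comparisons set genes of unlike level side by side. Relative to genes of like level, evpla was at -1.22, esrp2 at -1.21 and agr1 at -0.98. On that scale pkp3a was at -0.55, anxa1a at -0.39, dspa at -0.36 and cldne at 0.05. The keratin list had a median of -0.18 there, and anxa1a lay above pkp3a instead of below it.

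Markers of other cells and of the oocyte's store also differed, in the same pair of libraries. Beside the counts that follow, 37.2% of all genes were lower and 62.3% higher in the phf14 morpholino library. Of 11 measured genes of the yolk syncytial layer, the nuclear layer on the yolk surface, 10 were lower, with a median of -0.44 and a sum over the list of 1931.93 with the standard and 1510.77 with the phf14 morpholino. Relative to genes of like level 10 of these 11 were lower as well, with a median of -0.31. The lowest was apoc2, at 19.06 and 8.56 (-1.07). The nuclear receptor gene hnf4a was at 68.66 and 45.33 (-0.59), and mxtx1, for a homeobox factor of that layer, at 57.25 and 47.18 (-0.27). The fibronectin gene fn1a was the higher one at 1.58 and 3.39 (0.77). Of 23 deep cell genes 21 were lower, with a median of -0.25 (15 were lower relative to genes of like level) and sums of 2307.09 and 2025.63, from log2 ratios of -1.23 for her7 and -0.94 for her1 to 0.17 for gsc and 0.56 for otx1. Of 13 oocyte-supplied genes 11 were higher, with a median of 0.30, from ybx1 (-0.19) and org (-0.11) to bmp15 (0.85) and btg4 (0.87). Their sum was 2055.09 and 1940.10, and without the abundant RNA-binding protein gene ybx1, at 1769.87 and 1551.33, it was 285.22 and 388.77. The sum of the keratin list was 2280.90 and 1831.00, and no listed gene of these 4 lists was at 0 in either library. The part of embryo stage, cell makeup and oocyte RNA in the lower values of the 7 genes was not tested. In whole embryos, fewer cells of a type and less RNA per cell cannot be told apart.

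evpla and esrp2 had nearly the same pair of values, 0.06 apart by the Euclidean distance used next. Outside the 7, the gene nearest to each was found by Euclidean distance between pairs of log2(value + 1) over 2 libraries. The 2748 candidate genes were measured genes whose symbols hold only lower-case letters, digits and points, without the 7 themselves. Measured genes with other symbols, such as clone names, were not searched, and a nearer gene may be among them. None of the nearest candidate genes was in the 8 lists by role, but apoc2 is in the yolk syncytial list, where 10 of 11 measured genes were lower. The lipoprotein lipase cofactor gene apoc2, at 19.06 and 8.56 (log2 ratio -1.07), was the nearest both to evpla (distance 0.25) and to esrp2 (0.31). The receptor tyrosine kinase gene ephb4a, at 19.58 and 15.40, was nearest to dspa (0.03). The histone variant gene h2afy, at 13.02 and 9.59, was nearest to pkp3a (0.04), and the ribosomal protein gene rps24, at 203.70 and 190.48, to cldne (0.04). The cathepsin gene ctsll, at 159.71 and 117.02, was nearest to anxa1a (0.13), and the kinase gene sgk2b, at 2.98 and 1.11, to agr1 (0.09). The distances from evpla and esrp2 to the nearest candidate gene were greater than those of the other 5. Both were chosen with their values known, and each was left out of the other's candidates, so nothing is read from this.

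Gene order was looked at as well. In the RefSeq annotation of the GRCz12tu assembly, which served here for gene order and not for coordinates, cldne lies in a run of claudin genes, with cldnj on one side and cldnf and cldna on the other. All 3 were listed, and all 3 were lower in the phf14 morpholino library, cldnj at 3.85 and 3.40 (-0.14), where 37.2% of all genes were lower. These 3 are among the 8 claudin genes counted above, of which 6 were lower, so they add no separate observation. Of the 36 protein-coding genes within 3 places of the other 6 genes, 6 were listed, and 5 of these were higher, as were 62.3% of all genes. They ran from -0.04 for traf3ip1, next to agr1, to 0.42 for hexa, next to pkp3a. The neighbour of esrp2, nfatc3a, was at 4.71 and 5.95 (0.28) while esrp2 itself was at 43.1% of its standard value. No gene within 3 places of evpla or anxa1a was measured here.

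The order of the 7 log2 ratios, from the lowest, was evpla, esrp2, agr1, anxa1a, pkp3a, dspa and cldne. Neighbours in this order differed by between 0.02 (evpla and esrp2) and 0.31 (esrp2 and agr1), each less than the SD among genes of their own level bins, which was between 0.31 and 0.34. That SD is a spread across genes and does not measure the error of a single ratio. With 1 library per group, the order of the 7 could not be tested at any distance. The ends of the order were 1.05 apart. The order also depends on the setting. As a share of the standard value agr1 was lowest at 41.9%, before evpla at 42.5% and esrp2 at 43.1%. With a pseudocount of 5, agr1 (-0.35) came after anxa1a (-0.53). Relative to genes of like level, pkp3a (-0.55) came before anxa1a (-0.39).

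**Figure D4:**
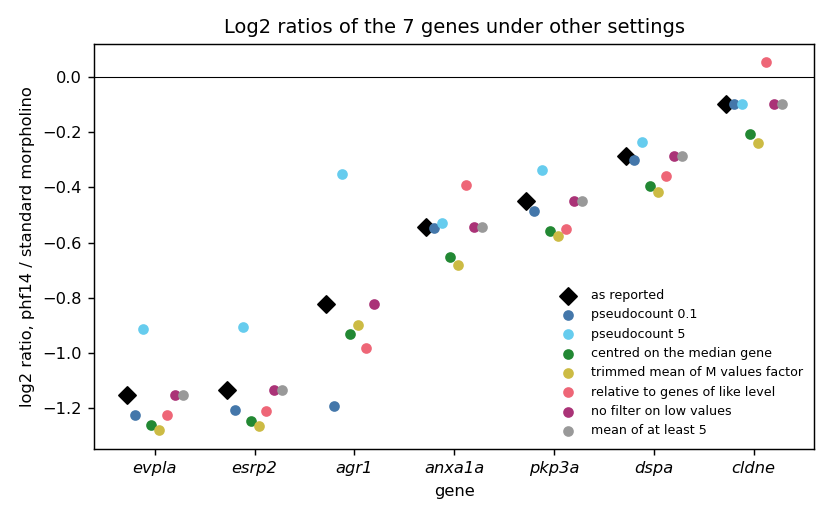
Log2 ratio of the phf14 over the standard morpholino library (vertical axis) for each of the 7 genes (horizontal axis), with black diamonds for the values as reported and coloured points for 7 other settings of pseudocount, scaling and filter. agr1 moves furthest, from -1.19 to -0.35, and cldne alone crosses 0, at 0.05 relative to genes of like level.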

How the data were processed

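Per the labels' protocols, each TruSeq library (Illumina) started from 1 ug of RNA. The authors deposited a table for either library that gives every listed gene 1 normalised signal. Per the file headers it is called expression, with no unit. Values are 0 or above with up to 2 decimals. Those below 1 took 98 and 99 of the 99 possible steps, so no step worth 1 read could be found. Aligner, build, annotation and scaling are not stated in the labels or files.

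Log2 ratios used a pseudocount of 1 on genes whose mean reached 1 (Python 3.11.15, numpy 2.4.6, pandas 2.3.3), which understates the change of low genes. The calculation was tested on simulated data. No statistical test was made, since each group is 1 library. Members and lists were chosen with earlier results of these data known. All 7 members were named, as were the 2 lowest and 2 highest other genes of each of the 12 lists and the candidate gene nearest to each member. Other list genes, and the neighbours in gene order, were named after their values were seen.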

Additional observations from a re-analysis of the deposited data

How the results depend on the processing

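All 7 genes kept lower values with the phf14 morpholino under pseudocounts of 0.1 and 5, subtraction of the median log2 ratio, a trimmed mean of M values (unweighted, without the outer 30% of ratios and 5% of levels on each side), no filter and, for the 6 that passed, a mean of at least 5. The exception was cldne, at a log2 ratio of 0.052 relative to genes of like level. The number of the 7 past 1.5-fold lower was between 2 and 4 under those settings, against 3. The share of all genes past it was between 0.795% and 5.19%. With the lowest threshold, 0.32 on the log2 scale, it was 5, and 10.98% of all genes passed. The median log2 ratio of the 7 ran from -0.68 to -0.35. Counts of lower genes were 3 in place of 1 for the hemidesmosome and matrix list without a filter, which let in 4 more genes, and, relative to genes of like level, 4 in place of 2 for oocyte-supplied genes and 15 in place of 21 of the 23 deep cell genes. For protein folding genes they were 2 in place of 1 with the median subtracted, the trimmed mean or no filter, and 0 of 2 with a mean of at least 5, which agr1 did not reach. The surface protein list had a median of -0.25 in place of 0.20 with that filter, which left 2 genes. The cause of the moves under other scalings was not tested. No paired analysis was possible because there was 1 library a group, which also left none to leave out. Depth is unknown.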
